A study of Mus musculus with 9 samples.

Results

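The 10 genes described here mark dendritic cells and the costimulation they give to T cells, and they were picked by name, as the genes whose symbol in the platform annotation is one of these 10, out of 19494 genes and 22142 probe sets. Each had 1 probe set. Dendritic cells take up antigen, carry it to lymph nodes and show it to T cells, and type I interferons are among the signals that change them from a resting to a stimulating state. Conventional dendritic cells of type 1 (cDC1) take up dead cells and present their antigens to CD8 T cells, those of type 2 (cDC2) mainly address CD4 T cells, and plasmacytoid dendritic cells are specialised in making interferon. In the resting liver all of them are rare beside hepatocytes and Kupffer cells, the macrophages that reside there. Of the 10 genes, Itgax encodes CD11c, an integrin chain of dendritic cells and of many other myeloid cells, and Flt3 the receptor of the growth factor on which dendritic cells depend. Clec9a, Xcr1 and Batf3 mark cDC1, Siglech marks plasmacytoid dendritic cells, Cd1d1 presents lipids to NKT cells, Cd80 and Cd86 are the B7 ligands of CD28, and Ccr7 leads mature dendritic cells to lymph nodes.

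Expression was read in the liver of 9 C57BL/6 mice, 1 array per mouse, 15 days after intravenous injection. The labels give an age of 6 weeks, and the methods say that the mice were female. Mock mice were not injected. AAV-IFNα mice received 1.2e+11 vg (vector genomes) of an adeno-associated virus of serotype 8 that carries mouse IFNα1, and mice of the AAV combination received the same dose together with 9.5e+11 vg of AAV-L37pA, which carries a peptide that mimics apolipoprotein A-I. Each group held 3 mice. Both transgenes were driven by the promoter of elongation factor 1α, which is not restricted to hepatocytes. No group with only AAV-L37pA, or with a vector lacking a transgene of interest, was analysed here, so the effects of IFNα and of an injected vector cannot be told apart against Mock, and the combination mice also received more vector in total. Total RNA on a Clariom S array is given in the methods, polyA RNA in the labels.

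The values are log2 expression values, so that a difference of 1 is a doubling, and the level of one gene is not set against that of another since their probes differ. A log2 value of 5 is the level above which the filter used here takes a probe set as expressed. It follows the wording of the methods, but the study reports keeping about as many probe sets as the table holds. A log2 threshold of 5 keeps fewer, 14715 of 22142. Precision is limited by having 3 arrays in a group. Array medians lay between 5.78 and 5.83, arrays of a group correlated with an r of 0.984 to 0.993 across probe sets, and no pair of arrays held identical values. Of 8 hepatocyte markers, 0 were called in any comparison (limma), 0 also at an unadjusted p under 0.05, and their mean log2 value lay between 11.75 and 11.99 on every array. Differences were tested with limma over all probe sets at once, since an exact two-sided test of 3 arrays against 3 cannot go below p = 0.10. Since whole liver was measured, fewer cells of a type and less RNA per cell cannot be told apart. Both comparisons against Mock share the Mock arrays, and the comparison of the treated groups reuses the arrays of both, so their results are not independent of each other.

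Of the 10 genes, 7 had a promoter window in RefSeq (GRCm38.p6), from 250 bases before the transcription start to 50 bases after it, namely Itgax, Flt3, Clec9a, Xcr1, Batf3, Siglech and Cd80. Cd1d1, Cd86 and Ccr7 had none. The windows were searched on both strands for 4 short motifs: the core of the interferon-stimulated response element, GAAANNGAA, held by 8.56% of 32851 windows; the STAT element GAS, TTCNNNGAA, held by 8.30%; the AP-1 element TGANTCA, to which BATF3 and JUN also bind, held by 7.81%; and a kappa-B element, GGGANTTTC, held by 1.11%. GAS and AP-1 letters read the same on both strands, so a match has no strand. Of the 7 windows, 5 held 1 of them and 2, those of Flt3 and Xcr1, held none. The share of all windows that hold any of the 4 was not computed, so this count has no matching background. The 3 windows below belong to genes whose values were higher on all AAV-IFNα arrays than on all Mock arrays, and the capitals mark the motif. The same held for Batf3, whose match is given after them, and for Xcr1, whose window holds none. The window of Itgax, on the plus strand at chr7:128129300-128129599, holds an AP-1 match from -56 to -50 of the start. That of Clec9a, on the plus strand at chr6:129408612-129408911, holds an interferon element core on the opposite strand from -2 to 7, across the start. That of Cd80, on the plus strand at chr16:38458683-38458982, holds an AP-1 match from -42 to -36.
Itgax: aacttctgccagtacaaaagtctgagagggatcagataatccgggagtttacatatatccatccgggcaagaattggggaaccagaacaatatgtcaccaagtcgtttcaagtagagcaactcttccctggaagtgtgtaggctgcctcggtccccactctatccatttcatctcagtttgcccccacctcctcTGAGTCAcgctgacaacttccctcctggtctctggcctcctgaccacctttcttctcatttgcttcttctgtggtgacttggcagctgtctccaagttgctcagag
Clec9a: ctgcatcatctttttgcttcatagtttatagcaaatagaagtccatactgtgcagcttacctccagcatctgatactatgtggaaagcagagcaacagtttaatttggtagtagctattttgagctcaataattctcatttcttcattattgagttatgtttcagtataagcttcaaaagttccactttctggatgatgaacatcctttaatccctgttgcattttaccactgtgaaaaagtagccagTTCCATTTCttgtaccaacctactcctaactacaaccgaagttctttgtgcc
Cd80: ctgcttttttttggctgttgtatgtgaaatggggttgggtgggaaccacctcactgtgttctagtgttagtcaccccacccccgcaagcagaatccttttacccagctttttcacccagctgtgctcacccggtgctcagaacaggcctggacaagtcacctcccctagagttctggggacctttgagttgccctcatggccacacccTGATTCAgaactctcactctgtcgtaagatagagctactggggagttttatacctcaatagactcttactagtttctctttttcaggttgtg
The windows of Batf3 and Siglech hold a GAS match, TTCCACGAA from -239 to -231 and TTCTCTGAA from -123 to -115. A match describes letters, not binding, and no factor was measured on these windows.

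With AAV-IFNα, Cd80, Cd86, Cd1d1, Itgax and the cDC1 markers Clec9a and Xcr1 rose over Mock, while Batf3, Flt3, Siglech and Ccr7 gave no call. Over all 10 genes, fitted without the filter, limma called 6 higher and 0 lower, where 6.99% of all 22142 probe sets were called higher and 3.24% lower. At an unadjusted p under 0.05 the counts were 7 higher and 0 lower. The 6 genes were Itgax, Clec9a, Xcr1, Cd1d1, Cd80 and Cd86, and their folds ran from 1.87 to 3.02. In this comparison the arrays of the groups did not overlap for 7 genes that were higher and 1 that was lower, against 14.3% and 15.9% of all probe sets. The median log2 fold change of the 10 genes was 0.91, beside -0.06 over all probe sets. The fit with the filter tested 7 of them and called 4 higher and 0 lower (background 11.2% and 5.06%), but Itgax and Cd86 entered it only through treated groups and Siglech only through Mock, so this count is no support for a direction.

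In the AAV combination, the costimulation genes and Cd1d1 were again above Mock, whereas Itgax and the cDC1 markers gave no call. Without the filter, limma called 3 of 10 higher (Cd1d1, Cd80 and Cd86) and 0 lower, where 2.43% of all probe sets were called higher and 0.519% lower, and at an unadjusted p under 0.05 the counts were 3 higher and 1 lower, Siglech. The arrays did not overlap for 3 genes that were higher and 1 that was lower, against 11.1% and 12.6% of all probe sets. The call of Cd80 was lost in 7 of 9 fits that left out 1 array, as given with that gene. The median was 0.14, beside -0.04 over all probe sets. With the filter, 2 of 7 were called higher and 0 lower (background 4.19% and 1.03%). Here too Itgax and Cd86 entered only through treated groups and Siglech only through Mock, so this count is no support for a direction.

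Against AAV-IFNα, the combination was lower in Itgax, the one gene of the 10 that passed the adjusted threshold on all 9 arrays. Without the filter, limma called 1 lower and 0 higher, where 1.40% of all probe sets were called lower and 0.230% higher, and at an unadjusted p under 0.05 the counts were 5 lower (Itgax, Xcr1, Batf3, Clec9a and Cd86) and 0 higher. The arrays did not overlap for 5 genes that were lower (Itgax, Flt3, Clec9a, Xcr1 and Batf3) and for 1 that was higher (Ccr7), against 8.47% and 6.94% of all probe sets. In the fit with the filter and without AAV-IFNα replicate 3, Cd86 was called lower as well (-0.74, limma adjusted p = 0.040). The median was -0.25, beside 0.01 over all probe sets. With the filter, 1 of 7 was called lower and 0 higher (background 2.20% and 0.394%). That gene, Itgax, entered only through the AAV-IFNα arrays, so this count is no support for a direction.

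**Figure D1:**
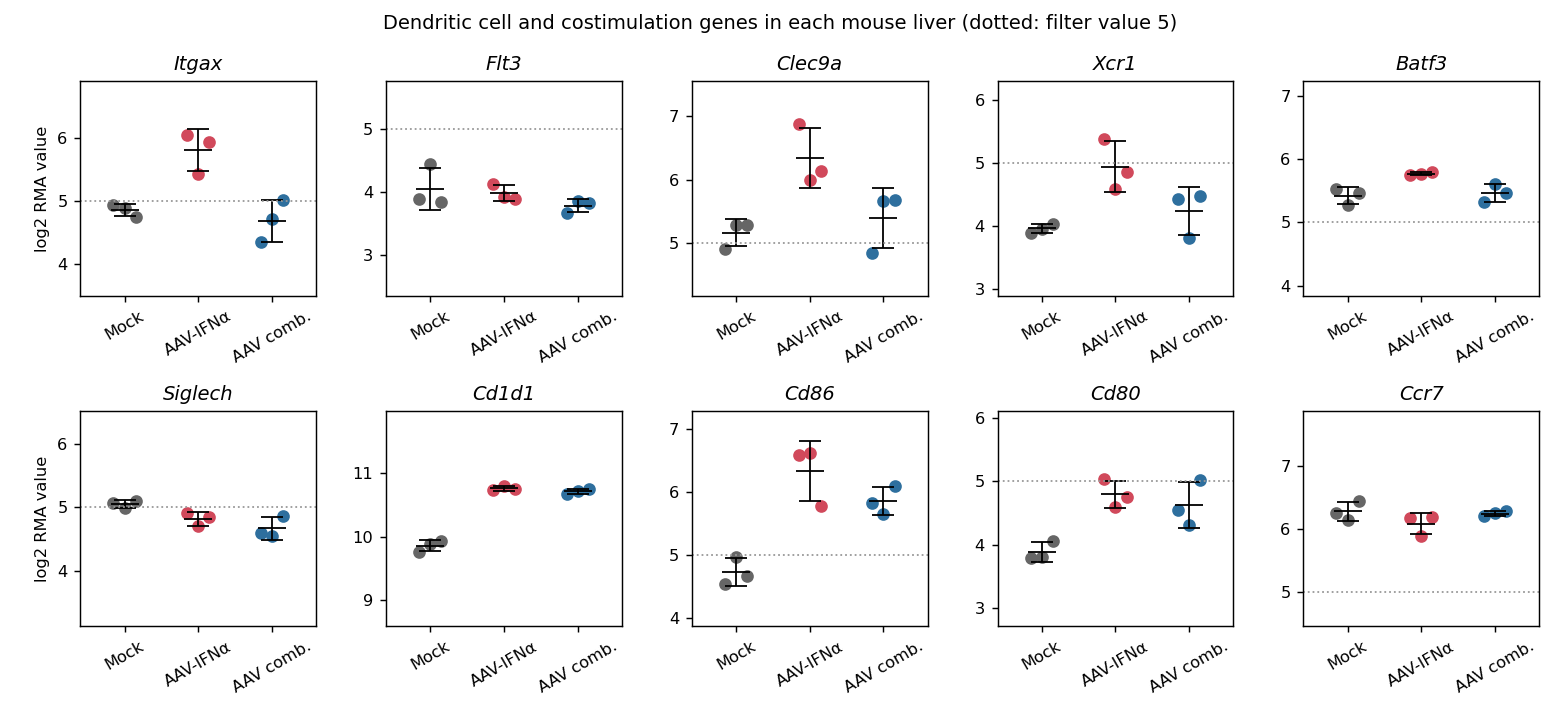
Log2 RMA values of the 10 genes, 1 panel each, with 1 point per mouse liver and a bar for the mean ± SD of the 3 arrays of a group; each vertical axis spans the same number of log2 units and the dotted line is the filter value of 5, which lies below the panel of Cd1d1. Itgax stood between 5.43 and 6.05 with AAV-IFNα and at or below 5.01 on all other arrays, while Cd1d1 stood between 10.67 and 10.81 in both treated groups and at or below 9.93 in Mock.

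Itgax was raised with AAV-IFNα and not in the combination, which returned no call against Mock. The 9 log2 values were 4.94, 4.89 and 4.75 in Mock, 6.05, 5.43 and 5.94 with AAV-IFNα, and 4.35, 4.71 and 5.01 in the combination. All AAV-IFNα arrays stood above all others, and the Mock and combination arrays overlapped at or below about the filter value. The group means were 4.86 ± 0.10, 5.81 ± 0.33 and 4.69 ± 0.33 (SD, n = 3 each). AAV-IFNα raised it over Mock by 0.95 on the log2 scale, or 1.93-fold (standard error 0.19, limma adjusted p = 0.0043). In the combination it was 1.12 lower than with AAV-IFNα on the log2 scale (-1.12, or 2.17-fold, standard error 0.19, limma adjusted p = 0.0077), and this call was kept when any 1 array was left out, with changes from -1.31 to -0.95 and adjusted p up to 0.042. Between the combination and Mock the difference was -0.17, with a 95% interval from -0.58 to 0.24 (limma adjusted p = 0.63). Its probe set passed the filter only through the AAV-IFNα arrays. The fits that left out an array kept that filter, so the kept call does not check this selection. Without the filter, the limma adjusted p was 0.0050 for AAV-IFNα against Mock and 0.0083 between the treated groups. The AP-1 match in its window is shown above.

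Flt3, which like Itgax serves as a marker of dendritic cells in general, gave no call. On the arrays it had log2 values of 3.89, 4.44 and 3.84 in Mock, 4.13, 3.93 and 3.89 with AAV-IFNα, and 3.68, 3.86 and 3.83 in the combination. No array reached 5, so the gene was fitted only without the filter, and the Mock arrays spanned most of the range of all 9. The combination arrays lay just below the AAV-IFNα arrays. The changes were -0.07 with AAV-IFNα against Mock (95% interval -0.42 to 0.27, limma adjusted p = 0.81), -0.26 in the combination against Mock (-0.61 to 0.09, adjusted p = 0.41) and -0.19 between the treated groups (-0.54 to 0.16, adjusted p = 0.82).

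The cDC1 markers were highest with AAV-IFNα, and their means in the combination lay between the other groups without a call against Mock. Clec9a, the receptor by which cDC1 sense dead cells, had log2 values of 4.91, 5.29 and 5.28 in Mock, 6.88, 6.00 and 6.14 with AAV-IFNα, and 4.84, 5.66 and 5.67 in the combination. Every AAV-IFNα array lay above every other array, and combination replicate 1 lay with the lowest Mock array. It rose by 1.18 with AAV-IFNα, or 2.26-fold (standard error 0.25, limma adjusted p = 0.0064), a call that stood with each array left out (0.91 to 1.35, adjusted p up to 0.031). Its B-statistic, limma's log odds for a change, which the methods required to be above 0, was -0.45. The difference between the treated groups was -0.95, with a 95% interval from -1.49 to -0.40 that leaves out 0, but the adjusted p of 0.075 missed the threshold. In the combination it stood 0.23 above Mock (-0.31 to 0.78, limma adjusted p = 0.62), a value that ran from 0.09 to 0.51 with 1 array left out.

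Xcr1, the receptor by which cDC1 follow the chemokine XCL1, was a low signal that crossed 5 on 1 array only. It had log2 values of 3.89, 3.96 and 4.04 in Mock, 5.38, 4.58 and 4.86 with AAV-IFNα, and 4.43, 3.81 and 4.48 in the combination. Again the AAV-IFNα arrays lay above all others, while the combination arrays overlapped those of Mock. Without the filter it rose by 0.98 with AAV-IFNα (1.97-fold, standard error 0.21, limma adjusted p = 0.0076), and each array left out gave 0.76 to 1.16 with adjusted p up to 0.038. Its B-statistic of -0.15 was under the methods' threshold of 0. It differed by 0.28 between the combination and Mock (-0.16 to 0.72, limma adjusted p = 0.50, and 0.16 to 0.49 with 1 array left out) and by -0.70 between the treated groups (-1.14 to -0.25, adjusted p = 0.16).

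Batf3, the transcription factor without which cDC1 do not develop, gave no call. Its values were 5.52, 5.27 and 5.47 in Mock, 5.75, 5.76 and 5.80 with AAV-IFNα, and 5.32, 5.61 and 5.46 in the combination. The AAV-IFNα arrays were tightly grouped (SD 0.03, n = 3) and above all others. The change of 0.35 against Mock (95% interval 0.08 to 0.63) missed the threshold (limma adjusted p = 0.077), as did -0.31 between the treated groups (-0.58 to -0.03, adjusted p = 0.34). In the combination it was 0.05 above Mock (-0.23 to 0.32, limma adjusted p = 0.86).

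Siglech, a receptor that mouse plasmacytoid dendritic cells carry, had lower values in the treated groups, without a call. The log2 values were 5.07, 4.99 and 5.10 in Mock, 4.91, 4.70 and 4.84 with AAV-IFNα, and 4.59, 4.54 and 4.87 in the combination. All treated arrays lay below all Mock arrays and below 5, which the gene passed only in Mock. Neither -0.24 with AAV-IFNα (95% interval -0.52 to 0.04, limma adjusted p = 0.23) nor -0.39 in the combination (-0.67 to -0.10, adjusted p = 0.11) passed the test. The treated groups differed by -0.15 (-0.43 to 0.13, limma adjusted p = 0.77).

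Cd1d1, which presents lipid antigens to NKT cells and which hepatocytes also express, rose in both treated groups. Its log2 values were 9.76, 9.89 and 9.93 in Mock, 10.74, 10.81 and 10.75 with AAV-IFNα, and 10.67, 10.72 and 10.76 in the combination. The treated arrays overlapped each other and lay well above Mock. The rise was 0.91 with AAV-IFNα (1.87-fold, standard error 0.12, limma adjusted p = 1.3e-04) and 0.86 in the combination (1.81-fold, standard error 0.12, adjusted p = 5.5e-04). The difference between the treated groups was -0.05, with a 95% interval from -0.30 to 0.20 (limma adjusted p = 0.94). The neighbouring Cd1d2, a near copy added here after its values were seen, has a probe set of its own, and whether the 2 probe sets read each other's transcripts was not tested. Cd1d2 had log2 values of 7.79, 7.83 and 7.78 in Mock, 8.07, 8.18 and 8.14 with AAV-IFNα, and 8.17, 8.30 and 8.36 in the combination. Its changes against Mock were 0.33 (limma adjusted p = 0.071) and 0.48 (adjusted p = 0.032).

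The B7 ligands were raised in both treated groups. Cd86, the B7 ligand that appears earlier on activated antigen-presenting cells, had log2 values of 4.54, 4.97 and 4.67 in Mock, 6.59, 6.61 and 5.78 with AAV-IFNα, and 5.83, 5.65 and 6.09 in the combination. Every treated array stood above every Mock array, none of which reached 5, and AAV-IFNα replicate 3 lay within the range of the combination. It rose by 1.60 with AAV-IFNα, or 3.02-fold (standard error 0.21, limma adjusted p = 2.0e-04), and by 1.13 in the combination, or 2.19-fold (standard error 0.21, adjusted p = 0.0076). Between the treated groups the change was -0.46 (95% interval -0.92 to -0.00, limma adjusted p = 0.42), and it passed the test when AAV-IFNα replicate 3 was left out (-0.74, adjusted p = 0.040). These changes are from fits with the filter, which Cd86 passed only through the treated groups. Without the filter, the limma adjusted p was 1.8e-04, 0.0083 and 0.49 for the changes of 1.60, 1.13 and -0.46.

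Cd80, the other B7 ligand, reached 5 on 1 array of each treated group. Its log2 values were 3.79, 3.80 and 4.06 in Mock, 5.03, 4.60 and 4.75 with AAV-IFNα, and 4.55, 4.31 and 5.02 in the combination. The treated groups overlapped and both lay above Mock. Fitted without the filter, it rose by 0.91 with AAV-IFNα (1.88-fold, standard error 0.18, limma adjusted p = 0.0050), a call kept with each array left out (0.79 to 1.01, adjusted p up to 0.031). In the combination it rose by 0.74 (1.67-fold, standard error 0.18, limma adjusted p = 0.042), with a B-statistic of -1.08 under the methods' threshold, and this call was lost in 7 of 9 fits that left out 1 array. With Mock replicate 1, 2 or 3 left out it was 0.70, 0.70 or 0.83 (limma adjusted p = 0.12, 0.093 and 0.064). Leaving out combination replicate 1 or 3 gave 0.78 or 0.55 (limma adjusted p = 0.076 and 0.19). Leaving out AAV-IFNα replicate 2 or 3, which changes only the shared spread, gave 0.74 with limma adjusted p of 0.052 and 0.055. The difference of -0.17 between the treated groups had an interval from -0.55 to 0.22 (limma adjusted p = 0.88).

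Ccr7, the receptor for CCL19 and CCL21 that dendritic cells gain on maturation and that naive T cells carry as well, gave no call. Its log2 values were 6.26, 6.14 and 6.44 in Mock, 6.18, 5.89 and 6.19 with AAV-IFNα, and 6.20, 6.25 and 6.29 in the combination. The combination arrays lay just above the AAV-IFNα arrays and within the range of Mock. The changes were -0.19 with AAV-IFNα (95% interval -0.48 to 0.09, limma adjusted p = 0.33), -0.04 in the combination (-0.32 to 0.25, adjusted p = 0.89) and 0.16 between the treated groups (-0.13 to 0.44, adjusted p = 0.75).

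**Figure D2:**
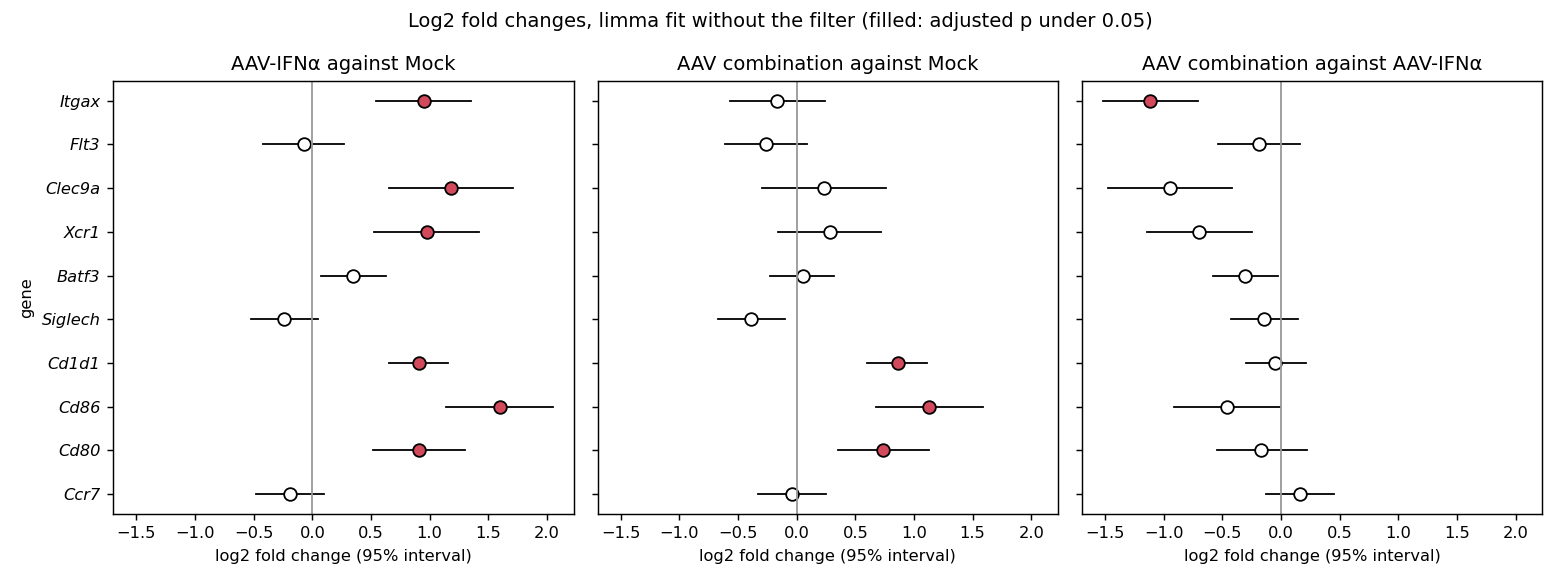
Log2 fold changes of the 10 genes in the 3 comparisons (horizontal axes, log2 units) from the limma fit without the filter, with 95% intervals as lines and filled points where the adjusted p was under 0.05. In the comparison of the treated groups, Itgax at -1.12 is the one filled point, and the points of Clec9a at -0.95 and Xcr1 at -0.70 are open although their intervals leave out 0.

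Other genes of the same cells were read from lists in which the 10 genes do not appear. Counts and medians of a list are over all its measured genes, from the limma fit without the filter, since Rab7b, Dtx1, Ccl19, Ccr2, Cd3g, Cd8b1 and Ncr1 passed the filter only through the AAV-IFNα arrays. Values of single genes are from the fit with the filter. Where a list is said to have 0 genes in 1 direction, its count in that direction at an unadjusted p under 0.05 was 0 too unless given. The medians over all probe sets were -0.06 with AAV-IFNα against Mock, -0.04 in the combination against Mock and 0.01 between the treated groups.

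Of 12 further cDC1 genes, 7 rose and 0 fell with AAV-IFNα (median 0.67), 2 rose and 0 fell in the combination (median 0.11), and 3 were lower and 0 higher in the combination than with AAV-IFNα (median -0.46). Irf8, the transcription factor of cDC1 that B cells and macrophages also use, had group means of 6.58, 7.31 and 6.67 in Mock, AAV-IFNα and the combination. It rose by 0.74 with AAV-IFNα (limma adjusted p = 0.0030) and was 0.64 lower in the combination (-0.64, adjusted p = 0.029), with 0.10 left against Mock (adjusted p = 0.72). Rab7b, a GTPase of late endosomes, had means of 4.16, 5.40 and 4.53, a rise of 1.24 (limma adjusted p = 9.5e-04), and in the combination it was lower than with AAV-IFNα (-0.88, adjusted p = 0.036). It had to be high with AAV-IFNα to be tested there. Ppt1, a lysosomal thioesterase, rose by 1.67 with AAV-IFNα and by 1.01 in the combination (limma adjusted p = 1.8e-06 and 4.2e-04), and Tlr3, a sensor of double-stranded RNA, by 2.05 and 1.52 (adjusted p = 5.7e-06 and 2.2e-04). All 4 of these genes are also expressed outside dendritic cells. Naaa, Tlr11 and Id2 were called with AAV-IFNα as well. Without the filter they rose by 1.12, 0.73 and 0.62 (limma adjusted p = 0.0048, 0.015 and 0.014). Not called with AAV-IFNα, in the fit without the filter, were Cadm1, Itgae, Wdfy4, Snx22 and Cd24a, with changes from -0.25 to 0.13 (limma adjusted p of 0.35 or more).

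Of 12 cDC2 genes, 2 rose and 0 fell with AAV-IFNα (median -0.01), 0 were called in the combination against Mock (median -0.08; 2 higher and 0 lower at an unadjusted p under 0.05), and 1 was lower and 0 higher between the treated groups (median -0.10). The mean of the 12 ran from 5.54 to 5.56 in Mock, 5.68 to 5.87 with AAV-IFNα and 5.49 to 5.61 in the combination. Both genes that rose have other sources: Sirpa, the CD47 receptor that macrophages share, rose by 1.52 (limma adjusted p = 1.6e-04) and was lower in the combination (-0.89, adjusted p = 0.030), and Il1b, a cytokine of activated myeloid cells, rose by 1.41 (adjusted p = 0.0020). Clec10a, a lectin of cDC2, and Esam, an adhesion molecule that endothelium shares, changed by -0.05 and -0.26 (limma adjusted p = 0.85 and 0.31). Whether cDC1 and cDC2 lists differ in their response was not tested.

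Of 13 plasmacytoid dendritic cell genes, 6 rose and 0 fell with AAV-IFNα (median 0.46), 3 rose and 0 fell in the combination (median 0.27) and 0 differed between the treated groups (median 0.07; 2 lower and 0 higher at an unadjusted p under 0.05), while Siglech itself gave no call. The members with the smallest p were Irf7, which rose by 3.17 and 3.04 in the treated groups (limma adjusted p = 5.0e-09 and 1.3e-08), and Bst2, which rose by 1.37 and 1.44 (adjusted p = 6.3e-05 and 1.0e-04). Both are induced by interferon in most cell types. Tlr7 and Tlr9, sensors of nucleic acids that macrophages or B cells also carry, rose by 2.55 and 1.49 with AAV-IFNα (limma adjusted p = 8.2e-05 and 0.0021), and of these only Tlr7 was called in the combination (1.84, adjusted p = 0.0032). Ly6d and Tcf4 were called with AAV-IFNα as well and rose by 1.20 and 0.49 (limma adjusted p = 0.024 and 0.028). In the combination they gave no call against Mock (limma adjusted p = 0.079 and 0.19). Without the filter, Spib, Ccr9, Cox6a2, Pacsin1, Klk1, Upb1 and Lag3 gave no call with AAV-IFNα. Their changes ran from -0.31 to 0.46 (limma adjusted p of 0.13 or more). Of 12 genes of dendritic cell development, 3 rose and 0 fell with AAV-IFNα (median 0.04), 1 rose and 0 fell in the combination (median -0.02), and 3 were lower and 0 higher in the combination than with AAV-IFNα (median -0.20). Called in both were Spi1, the myeloid factor PU.1, with changes of 2.29 against Mock and -1.11 in the combination against AAV-IFNα (limma adjusted p = 8.4e-06 and 0.017), and the GM-CSF receptor chains Csf2ra (0.95 and -1.15, adjusted p = 0.019 and 0.025) and Csf2rb (0.95 and -0.81, adjusted p = 0.0026 and 0.028). Many myeloid cells express them. Zbtb46, a factor of conventional dendritic cells, and Flt3l, the ligand of FLT3, were named after their values were seen. They changed by 0.04 and -0.22 with AAV-IFNα (limma adjusted p = 0.87 and 0.27).

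Costimulation beyond Cd80 and Cd86 was read from 11 genes of the B7 and CD28 families. With AAV-IFNα 5 rose and 0 fell (median 0.36; 1 lower at an unadjusted p under 0.05), in the combination 2 rose and 0 fell (median 0.14), and 1 was lower and 0 higher between the treated groups (median -0.21). Cd274, the inhibitory ligand PD-L1, had group means of 5.30, 9.09 and 7.20, which is a rise of 3.79 with AAV-IFNα (limma adjusted p = 1.0e-08), of 1.89 in the combination (adjusted p = 1.7e-05), and a difference of -1.89 between them (adjusted p = 1.5e-04). Vtcn1, the inhibitory ligand B7-H4, rose by 0.82 and 0.90 (limma adjusted p = 0.0037 and 0.0054). Icos, a costimulatory receptor of T cells, rose by 0.87 and Vsir, an inhibitory B7 relative of myeloid and T cells, by 0.81 with AAV-IFNα (limma adjusted p = 0.0053 and 0.014), and neither was called in the combination (adjusted p = 0.13 and 0.56).

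Of 15 measured genes of dendritic cell maturation, 2 rose and 1 fell with AAV-IFNα (median 0.07), 1 rose and 0 fell in the combination (median -0.16; 3 higher and 4 lower at an unadjusted p under 0.05), and 1 was higher and 0 lower between the treated groups (median -0.08; 1 higher and 4 lower unadjusted). Il15, a cytokine that sustains NK and CD8 T cells, rose by 1.75 and 1.13 in the treated groups (limma adjusted p = 3.0e-04 and 0.018), and Birc3, an inhibitor of cell death, by 0.70 with AAV-IFNα (adjusted p = 0.010). The gene that fell, Socs2, had group means of 9.23, 7.35 and 8.79 (-1.88, limma adjusted p = 0.0011) and was higher in the combination than with AAV-IFNα (1.43, adjusted p = 0.029). In liver it is a target of growth hormone. Cd40, a receptor through which T cells activate dendritic cells, changed by 0.13 with AAV-IFNα and -0.48 in the combination (limma adjusted p = 0.58 and 0.096).

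Of 14 partners of the 10 genes, 6 rose and 0 fell with AAV-IFNα (median 0.38), 0 were called in the combination against Mock (median 0.16; 3 higher and 0 lower at an unadjusted p under 0.05), and 2 were lower and 0 higher between the treated groups (median -0.19). Ccl19, a ligand of CCR7, had group means of 4.09, 5.14 and 4.41, a rise of 1.04 (limma adjusted p = 6.3e-04), and in the combination it was lower than with AAV-IFNα (-0.73, adjusted p = 0.030). Its probe set was tested only because it was high with AAV-IFNα, and Ccr7 gave no call. B2m, the chain that CD1d needs at the cell surface, rose by 0.59 with AAV-IFNα and 0.42 in the combination (limma adjusted p = 0.0027 and 0.047), and without the filter the second missed the threshold (adjusted p = 0.071). Tyrobp, the adaptor DAP12 through which Siglec-H signals, rose by 1.65 with AAV-IFNα (limma adjusted p = 4.8e-04) and differed by 0.76 between the combination and Mock (adjusted p = 0.091).

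Markers of other immune cells, some of which can express Itgax or Cd86, moved in the same comparisons, and their part in these results was not tested. Of 9 inflammatory monocyte markers, 6 rose and 0 fell with AAV-IFNα, 3 rose and 0 fell in the combination, and 3 were lower and 0 higher in the combination than with AAV-IFNα. Their mean log2 value ran from 4.94 to 5.11 in Mock, 6.33 to 7.50 with AAV-IFNα and 5.93 to 6.03 in the combination. The monocyte gene Ly6c2 had means of 4.62, 9.68 and 8.21, and Ms4a4c 4.99, 9.20 and 7.88, so both lay under 5 only in Mock. Of 10 NK cell markers, 6 rose and 0 fell with AAV-IFNα, 3 rose and 0 fell in the combination, and 6 were lower and 0 higher between the treated groups. Their mean ran from 4.63 to 4.74 in Mock, 5.70 to 5.97 with AAV-IFNα and 4.85 to 5.08 in the combination. Kupffer cell markers ran from 7.20 to 7.30, 8.21 to 8.54 and 7.91 to 8.27, with 6 of 10 called higher with AAV-IFNα, 5 higher in the combination, and 1 lower between the treated groups (1 higher at an unadjusted p under 0.05). T cell markers ran from 4.72 to 5.06, 5.05 to 5.60 and 4.75 to 4.78, with 3 of 9 called higher with AAV-IFNα, 0 in the combination against Mock (2 lower at an unadjusted p under 0.05) and 1 lower between the treated groups. With the filter, Cd5 was called lower in the combination than in Mock (-0.56, limma adjusted p = 0.050). The 12 cDC1 genes ran from 6.01 to 6.12, 6.56 to 6.88 and 6.26 to 6.44. In the monocyte, NK and cDC1 lists the arrays of the 3 groups did not overlap, with the combination between Mock and AAV-IFNα, while treated groups overlapped in the Kupffer cell list and Mock overlapped both treated groups in the T cell list. B cell markers lay between 4.69 and 5.14 on all arrays and neutrophil markers between 4.27 and 4.40, with 0 of 7 genes called by limma in any comparison of either list. At an unadjusted p under 0.05, 1 B cell gene was lower with AAV-IFNα and 1 in the combination than in Mock, and 1 neutrophil gene was lower with AAV-IFNα. Of 8 sinusoidal endothelial markers, 2 rose and 1 fell with AAV-IFNα, and 0 were called in either comparison of the combination (0 higher and 1 lower against Mock, and 1 higher and 2 lower against AAV-IFNα, at an unadjusted p under 0.05).

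**Figure D3:**
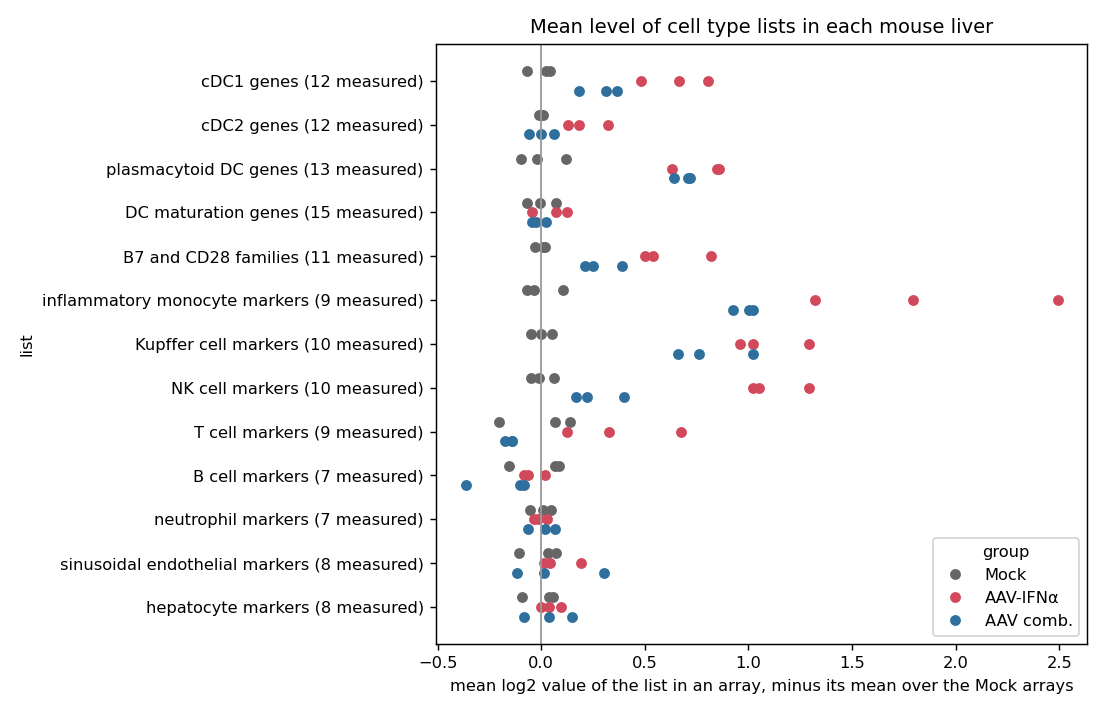
Mean log2 value of 13 gene lists on each array, minus the mean of the same list over the 3 Mock arrays (horizontal axis, log2 units), with 1 point per mouse liver, coloured by group. In the cDC1, cDC2, inflammatory monocyte and NK cell lists every AAV-IFNα point lies above every other point, in the Kupffer cell list the treated groups overlap, and in the hepatocyte and neutrophil lists all 3 groups overlap.

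As a description, the genes whose values ran most like each member across the 9 arrays were read off among the probe sets tested. These arrays share 3 group means, so a high Pearson r mainly repeats the order of the groups. For Itgax they were Actn1 (r = 0.958), Arhgap17 (0.954) and Ripor2 (0.952), and for Clec9a Slc8a1 (r = 0.982), Kif20b (0.976) and Tmem50b (0.968). Cd1d1 ran most like Trim12c (r = 0.995), Apol9a (0.994) and Rtp4 (0.993), the closest match of any member, and Cd86 like Nfkbib (r = 0.990), Megf9 (0.983) and Galnt1 (0.981). Those of Batf3 were Atm, Kdm3a and Id4 (r = 0.946 to 0.979), those of Siglech Fam181a, Dchs1 and Ssbp4 (r = 0.963 to 0.978), and those of Ccr7 Inpp5a, Guk1 and Acp6 (r = 0.946 to 0.953). Trim12c, Apol9a and Rtp4 had group means of 5.92, 8.89 and 5.69 in Mock, 8.02, 10.67 and 8.11 with AAV-IFNα and 7.80, 10.50 and 7.90 in the combination, and the means of Actn1 were 6.73, 7.20 and 6.69. The means of the nearest genes to Cd1d1 were higher in both treated groups than in Mock, and those of Actn1 with AAV-IFNα.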

How the data were processed

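Liver RNA of 9 mice was hybridised to 1 array each. The authors corrected background and normalized with the RMA algorithm, and the deposited values are on the log2 scale. Gene symbols came from the platform annotation, which names 19527 of 22142 probe sets. No genome build is given in the sources used here, and promoter windows came from RefSeq. The methods' filter, a value above 5 in 2 or more samples of a condition, kept 14715 probe sets when read on the log2 scale and all 22142 when read on the linear scale. The methods do not name the scale. The number of probe sets they report as kept is close to the second count and far from the first. The log2 reading was used here, so the filter of the fits here is stricter than the study's count allows for. The fit without the filter equals the linear reading. Probe sets were fitted with limma (version 3.58.1, R 4.3.3) on all 9 arrays, with 6 residual and 6.91 prior degrees of freedom, two-sided tests and Benjamini-Hochberg adjustment. Calls required an adjusted p under 0.05. The methods' threshold, a B-statistic above 0, was an alternative. Genes that failed the filter were fitted without it, and list counts, planned with the filter, are given without it, a choice made after the values were seen.

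The 10 genes and the 15 lists (161 genes, 153 measured) were chosen with earlier results of these data known. All 10 genes are named, up to 4 genes of each list with the smallest p, and the 3 genes most like each member that passed the filter. Cd1d2 and some list genes outside this rule were named after their values were seen. The labels number the samples of a group and name no batch, and p-values measure the spread between these samples. Alternatives were other filters, priors, normalizations, weights and arrays left out, and the replicate number as a block. Figures were drawn with matplotlib 3.10.9.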

Additional observations from a re-analysis of the deposited data

How the results depend on the processing

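With the filter, the counts were 4 higher with AAV-IFNα against Mock, 2 higher in the AAV combination against Mock and 1 lower against AAV-IFNα. As said above, these counts are no support for a direction. Under the alternatives run they were the same or within 1.5 times, with exceptions only in the last count. There the filter above 6 left 0, since it no longer tests Itgax, and leaving out AAV-IFNα replicate 3 gave 2, Itgax and Cd86. The fit without the filter tested all 10 genes, not 7, and called 6, 3 and 1. A B-statistic above 0 called 3, 2 and 1, and left out Clec9a. The replicate numbers were not taken as pairs, since same-numbered arrays deviated together by r of -0.13 to 0.22 and 3 of 9 pairs were above 0.1. With the replicate block the counts stayed 4, 2 and 1. Another quantile normalization gave 1384 higher and 1157 lower probe sets with AAV-IFNα against Mock, in place of 1655 and 745, with 4 of the 10 genes still called higher.

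Changes without a call turned sign as follows. With arrays centred on their median, Ccr7 in the combination against Mock was 0.00. With single arrays left out, the combination against Mock ran from -0.33 to 0.00 for Itgax, -0.03 to 0.12 for Batf3 and -0.11 to 0.04 for Ccr7, and AAV-IFNα against Mock ran from -0.18 to 0.12 for Flt3. Leaving out arrays for Flt3, Xcr1 and Cd80 in the fit without the filter was chosen after seeing the data. The cause of these changes was not tested. Values near or below 5, where a fold change may be understated, were those of Flt3, Xcr1, Cd80 and Siglech, and of Itgax and Cd86 in Mock and Itgax in the combination. Clec9a also lay near 5 in Mock, with Mock replicate 1 at 4.91 and combination replicate 1 at 4.84.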
